A study of Mus musculus with 14 samples.

Results

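The heat-shock and unfolded protein response was followed through 38 genes, picked by name from the 42687 genes of the count table. Of these, 13 encode cytosolic heat-shock proteins or their regulators, 2 encode the mitochondrial chaperonin pair, and 23 belong to the response to stress in the endoplasmic reticulum (ER). The 23 ER stress genes comprise 12 ER chaperones and folding enzymes, 2 genes of ER-associated degradation, 6 stress sensors and transcription factors, and 3 targets of the transcription factor ATF4. All 38 were found in the table by symbol, and 36 had at least 1 CPM (a library's counts scaled to a common total) in every one of the 14 libraries. The exceptions were Chac1 and Asns.

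Retinal pigment epithelium (RPE) was taken from 14 mice at 3 months of age, all on the C57BL/6J background, and 1 stranded poly(A) library was made per mouse. KO mice were Best1-Cre+/-; Clic4f/f, in which Cre under the RPE promoter Best1 removes the floxed gene for the chloride intracellular channel protein CLIC4. They were compared with WT mice (3 KO against 3 WT), with Ctrl mice that carried Clic4f/f but no Cre (2 against 2), and with CreCtrl mice that carried Best1-Cre+/- but no floxed allele (2 against 2). Each comparison had KO mice of its own, and these libraries with their controls are called the WT set, the Ctrl set and the CreCtrl set. Control genotype and set coincided, so an effect of one and of the other cannot be told apart. Before lysis the eye cups had been warmed with hyaluronidase and then with trypsin to loosen the RPE. The paper gives this protocol without separating KO from control mice, and whether they were processed together is not stated.

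Libraries held 9828293 to 32384166 counts. Clic4, the targeted gene, lay lower in every KO library than in every control library of its set, at 17.9 to 32.8 against 214.6 to 227.2 CPM in the WT set, 9.81 and 33.7 against 62.9 and 71.8 CPM in the Ctrl set, and 13.8 and 31.2 against 87.9 and 106.3 CPM in the CreCtrl set. All 10 RPE genes used to check the tissue had at least 1 CPM in every library. Ctrl replicate 2 stood apart from Ctrl replicate 1, with more transcript for 34 of the 38 genes and more than 1.5 times as much for 18 of them. CreCtrl replicate 2 had more than CreCtrl replicate 1 for 8 of the 38 and exceeded it by that much for 1. The reverse excess was not counted. CreCtrl replicate 1 did exceed replicate 2 by that much for some genes, such as Hspa1a (52.3 against 26.9 CPM) and Hsp90aa1 (728.8 against 467.0 CPM).

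Cells answer misfolded protein in the cytosol by releasing heat shock factor 1 (HSF1), which binds heat shock elements and induces HSP70, HSP40 and small heat-shock proteins. Misfolded protein in the ER is sensed by IRE1, PERK and ATF6, which act through XBP1, ATF4 and the cleaved form of ATF6 to raise chaperones, degradation factors and, under prolonged stress, the factor CHOP. The RPE digests shed photoreceptor tips daily and secretes proteins in quantity, so both arms are studied in this tissue.

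The control sequences of these genes were read from RefSeq promoters of the GRCm38.p6 assembly, using the 250 bases before each transcript start. A promoter was available for 30 of the 38 genes, among them 8 of the cytosolic group, both mitochondrial genes and 20 of the ER stress group. The heat shock element was searched on both strands as TTCNNGAANNTTC or GAANNTTCNNGAA. The exact element was present in 0.466% of 32851 promoters, and among the 30 genes only in the window that Hspd1 and Hspe1 share, since these genes are read in opposite directions from 1 region. With at most 1 mismatch, a version chosen after the exact search had been seen, it was present in 6.08% of promoters and in 5 of 8 cytosolic genes, both mitochondrial genes and 1 of 20 ER stress genes (Asns). The windows below show the elements beside Hspa1a, Hspa1b, Hsph1 and Hspb1, whose transcripts fell against WT, and beside Dnaja1 and Hspd1, which rose against WT. Capitals mark the element or overlapping elements, and each line runs 5′ to 3′ on the strand of the gene.
Hspd1, minus strand, chr1:55088054-55088081: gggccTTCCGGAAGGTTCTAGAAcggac
Hspa1a, minus strand, chr17:34972248-34972275: gacgcGAAACTGCTGGAAGATTCctggc
Hspa1b, minus strand, chr17:34959330-34959357: gacgcGAAACTGCTGGAAGATTCctggc
Hsph1, minus strand, chr5:149636347-149636374: aatctTTCTCGAAGGCTCGAGAAgaagg
Hspb1, plus strand, chr5:135887797-135887819: caagaGAAGTTTCCAGATggggg
Dnaja1, plus strand, chr4:40722334-40722356: aaagcCTCTAGAAAATTCtacga
Hspa1a and Hspa1b carried the same letters here, and their 250 upstream bases were identical at 247 positions. Hspb8, Dnajb1 and Bag3, whose transcripts also fell against WT, had promoter windows without either form of the element. Hspa8, Hsp90aa1 and Cryab were not among the genes with a window.

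The ER stress response element, which ATF6 recognises together with a CCAAT-binding factor, was searched as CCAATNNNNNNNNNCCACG on both strands. It was present in 0.113% of promoters and in 6 of the 20 ER stress genes with a window, which were Hspa5, Hsp90b1 (with 2 elements), Calr, Canx, Pdia6 and Dnajc3. All 6 encode ER chaperones or folding enzymes. The windows of 5 of them are shown because genes that carry this element differed in response, as Canx and Dnajc3 rose against both WT and CreCtrl while Hspa5 and Pdia6 passed edgeR's test in no comparison.
Hspa5, plus strand, chr2:34772020-34772048: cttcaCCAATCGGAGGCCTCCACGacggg
Calr, minus strand, chr8:84847070-84847098: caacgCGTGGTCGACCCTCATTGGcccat
Canx, minus strand, chr11:50325795-50325823: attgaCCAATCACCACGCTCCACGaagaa
Pdia6, plus strand, chr12:17266486-17266514: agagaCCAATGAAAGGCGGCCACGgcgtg
Dnajc3, plus strand, chr14:118937822-118937850: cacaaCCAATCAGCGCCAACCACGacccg
TGATGNAAT, a form of the composite C/EBP-ATF element bound by ATF4, was present in 0.816% of promoters and in no window of the 30 genes. The Asns window held TGATGAAAC, which differs from this pattern in the last base only. Forms with another last base were not searched. A match describes letters only, and its absence says only that these letters are not in this window.

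Loss of Clic4 was accompanied by a split within the cytosolic group and by a rise of ER chaperones in 2 of the 3 sets. The cytosolic genes Hspa1a, Hspa1b, Hsph1, Dnajb1, Hspb1, Hspb8 and Bag3 were lower in KO than in WT, whereas Hspa8, Hsp90aa1, Dnaja1 and Cryab were higher. Among the ER chaperones 8 of 12 rose against WT and 6 of 12 against CreCtrl, and none fell in either comparison, although scaling by library size alone left 5 and 3 of them higher and made Hspa5 lower against WT. ATF4, CHOP and degradation transcripts (Atf4, Ddit3, Herpud1, Edem1) fell against WT, so the ER stress genes did not move as a block.

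In KO vs. WT, the quasi-likelihood test of edgeR, with p-values adjusted over all genes by the Benjamini-Hochberg method, called 14 of the 38 genes higher (36.8%) and 11 lower (28.9%) at an adjusted p under 0.05, where 16.1% of the 15428 genes tested were called higher and 19% lower. In KO vs. CreCtrl it called 7 of 37 genes higher (18.9%) and 2 lower (5.41%), against 3.6% and 12.2% of all genes. With 1 KO effect fitted over the 3 sets, 13 of 38 rose (34.2%) and 10 fell (26.3%), against 18.5% and 17.6% of all genes. In KO vs. Ctrl, edgeR called 0 of 37 genes, as it called 0% of all genes. The targeted gene Clic4 was called lower against WT (-3.32, edgeR adjusted p = 3.33e-05) and CreCtrl (-2.16, edgeR adjusted p = 0.0132). Even Clic4 was not called in KO vs. Ctrl (-1.61, SE 0.58, edgeR adjusted p = 0.333). At an unadjusted p under 0.05, 6 of the 37 passed there (Hspa1a, Hspa1b, Dnajb1, Hspb1, Hspb8 and Asns, all lower), where 12.1% of all genes did, and DESeq2 called 2 (Hspb1 and Dnajb1). Chac1 had too few reads to be tested in the 2 smaller sets. DESeq2 kept all 9 calls against CreCtrl and added 10, which were Hspa8, Hsp90ab1, Cryab, Hspd1, Hsp90b1, Calr, Pdia3, Pdia6, Manf and Eif2ak3, all higher. Against WT it kept the 25 calls and added Hspa5 (lower) and Hsp90b1 (higher). Over the 3 sets it added Hsf1, Herpud1 and Atf4, all lower, and did not call Eif2ak3. Among all genes DESeq2 called 5847 against WT, 1168 against Ctrl, 3916 against CreCtrl and 7133 over the 3 sets. In the same order edgeR called 5419, 0, 2529 and 6388.

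By group, the cytosolic genes had 4 higher and 7 lower of 13 against WT, 1 higher and 2 lower against CreCtrl, and 4 higher and 7 lower over the 3 sets. Their median log2 fold change was -0.91 (WT set), -0.40 (Ctrl set) and -0.17 (CreCtrl set), where the median of all genes tested was -0.08, 0.01 and -0.02. The 12 ER chaperones had medians of 0.53, -0.07 and 0.67 in the same order, and 7 of them rose and none fell over the 3 sets. For all 23 ER stress genes, 8 rose and 4 fell against WT, 6 rose and none fell against CreCtrl, and 8 rose and 3 fell over the 3 sets. Scaled by library size alone, the median of all genes moved to -0.32, -0.11 and -0.24 in the 3 sets and to -0.29 over them, and the calls among the 38 became 10 higher and 14 lower against WT, 3 and 4 against CreCtrl, and 5 and 13 over the 3 sets. Of the calls among all genes, the higher ones went from 45.9% to 30.3% against WT and from 22.7% to 7.36% against CreCtrl. Over the 3 sets they went from 51.3% to 23.9%. Under that scaling the ER stress genes gave 5 higher and 6 lower against WT and 2 higher and 5 lower over the 3 sets. The prevailing direction of this group thus turned narrowly against WT and also over the 3 sets, along with the shift over all genes. It did not turn against CreCtrl, where 3 ER chaperones were higher and 1 sensor or factor and 1 ATF4 target were lower. Calls that this scaling ended were Hspe1, Pdia3, Dnajc3 and Hyou1 against WT, Hsp90aa1, Canx, Pdia4 and Sdf2l1 against CreCtrl, and Hspa8, Hspd1, Canx, Pdia3, Pdia4, Dnajc3, Hyou1 and Eif2ak3 over the 3 sets.

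**Figure D1:**
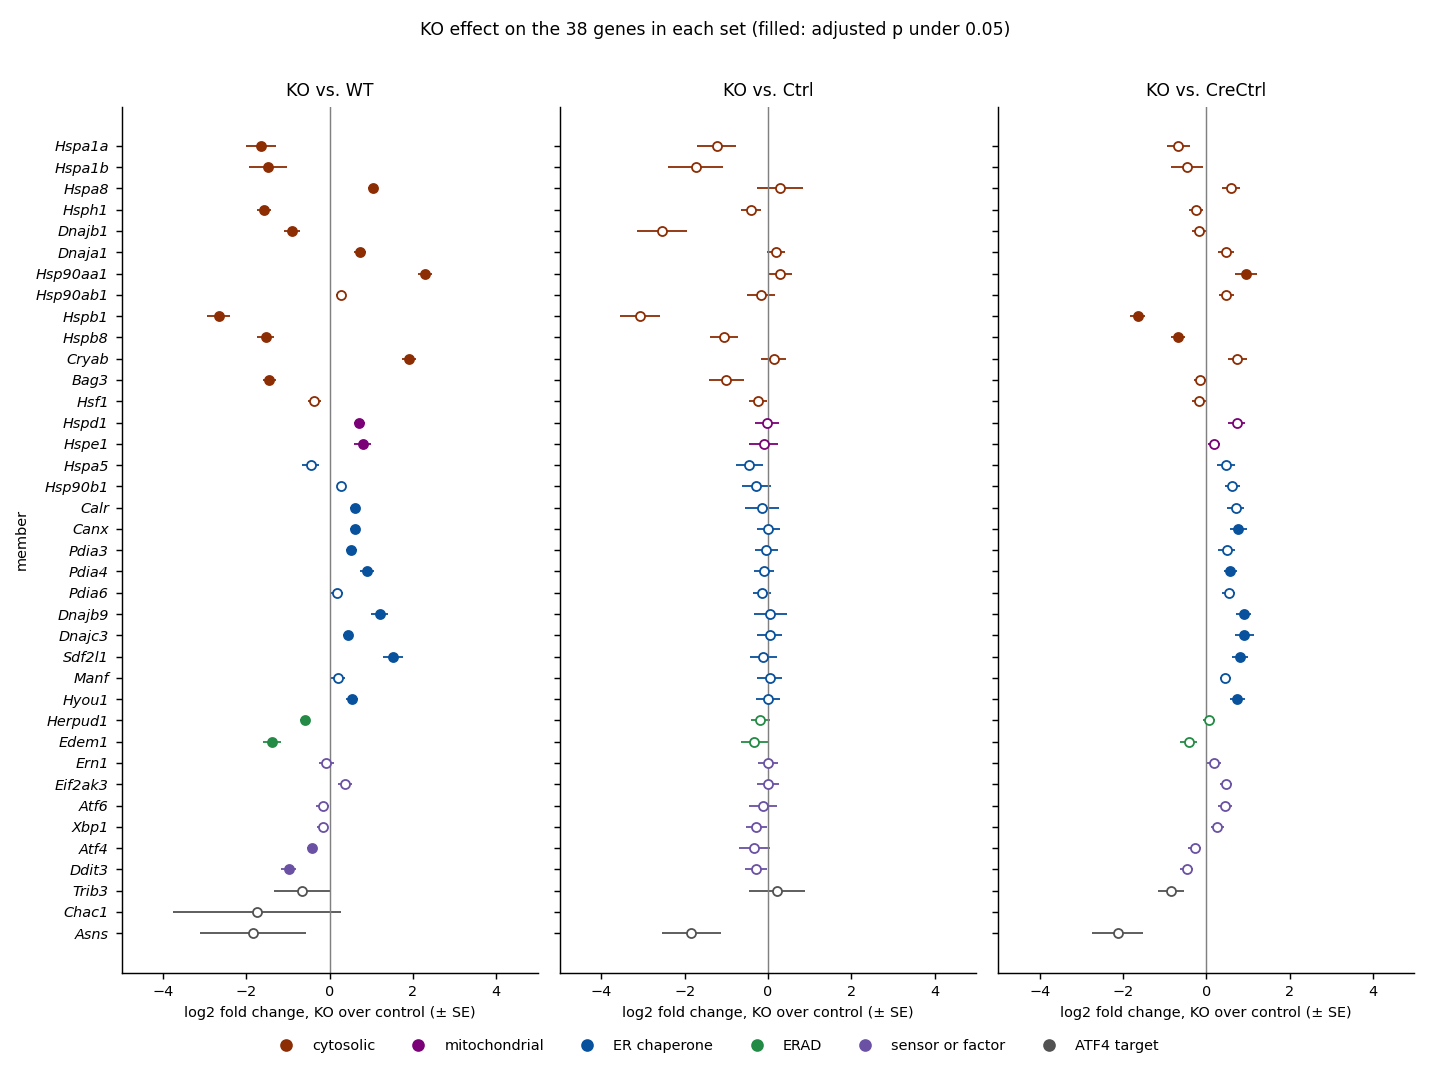
Log2 fold change of KO over control (x axis, bars are ± 1 SE) for the 38 genes (y axis, coloured by role) in the WT, Ctrl and CreCtrl sets; filled points have an edgeR adjusted p under 0.05. Filled points lie on both sides of 0 for the cytosolic genes, and the ER chaperones with filled points lie to the right of 0 in the WT and CreCtrl sets, while no point is filled in the Ctrl set.

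Transcripts of other cells and of acute activation moved with these comparisons, and their part in the results was not tested. The summed level of 18 immediate-early genes, led by Egr1 and Fos, was 14272.9 to 16987.3 CPM in WT and 1088.2 to 2467.5 in KO libraries, 7398.8 and 11631.7 against 528.6 and 2073.0 CPM in the Ctrl set, and 5348.9 and 5597.3 against 408.5 and 845.6 CPM in the CreCtrl set. Of these genes 17 of 18 fell against WT and 17 of 17 tested against CreCtrl. The 10 fibroblast genes, led by Dcn and Col1a2, summed to 8383.4 to 8882.7 CPM in WT and 290.6 to 870.4 in KO libraries, to 1300.9 and 2450.0 against 125.0 and 331.0 CPM in the Ctrl set, and to 1517.5 and 3025.3 against 277.7 and 373.4 CPM in the CreCtrl set, and 10 of 10 fell against WT. The 10 RPE genes, led by Ptgds and Ttr, went the other way, with sums of 24180.8 to 34433.5 CPM in WT and 128378.6 to 146132.8 in KO libraries, 70494.5 and 74475.5 against 115572.3 and 117840.9 CPM in the Ctrl set, and 75630.7 and 93982.0 against 115084.3 and 118467.5 CPM in the CreCtrl set. Of the RPE genes 9 of 10 rose against WT and 1 of 10 against CreCtrl. In such bulk samples, fewer cells of a type and less RNA per cell cannot be told apart.

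Further marker lists were counted in the same way. Against WT, lower calls were made for 9 of 10 myeloid, 8 of 10 endothelial, 4 of 7 pericyte and smooth muscle, 5 of 5 erythrocyte and 3 of 6 melanocyte and Schwann cell genes, and higher calls for 1 myeloid, 1 rod and 1 melanocyte or Schwann cell gene. Against CreCtrl, lower calls were made for 8 myeloid, 7 endothelial, 4 pericyte and smooth muscle, 2 erythrocyte, 3 melanocyte and Schwann cell and 9 of 10 rod genes, and against Ctrl none of the marker genes was called. Skeletal muscle genes, 1 of which fell in each of the WT and CreCtrl sets, summed to at most 20.4 CPM and lens genes to at most 16.3 CPM in any library, and no lens gene was called in a single set. The lens list bears on Cryab, which the lens also expresses, and its crystallin genes Crygc and Crygd had 0 counts in every library.

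**Figure D2:**
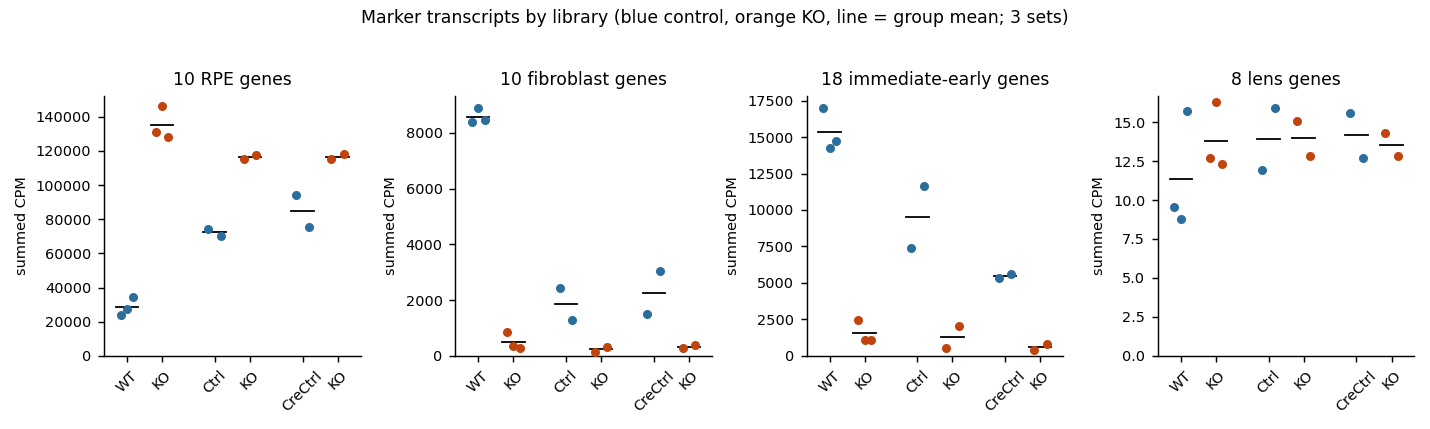
Summed CPM (y axis, from 0) of RPE, fibroblast, immediate-early and lens genes in each of the 14 libraries (points, blue control and orange KO; lines are group means). KO libraries lie above the controls of their set for the RPE genes and below them for the fibroblast and immediate-early genes, and the lens sums stay between 8.77 and 16.3 CPM.

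The stress-inducible HSP70 genes Hspa1a and Hspa1b are single-exon neighbours on chromosome 17 of GRCm38 (34969190 to 34972156 and 34956436 to 34959238, both on the minus strand). Hspa1a had 96.5, 83.5 and 124.7 CPM in WT and 50.1, 42.3 and 15.9 CPM in the KO libraries of that set. Its levels were 62.8 and 61.2 CPM in Ctrl against 14.5 and 37.7 in KO libraries, and 52.3 and 26.9 CPM in CreCtrl against 24.4 and 26.9 in KO libraries. The groups did not overlap in the WT and Ctrl sets and overlapped in the CreCtrl set. The log2 fold change against WT was -1.65 (SE 0.37, edgeR adjusted p = 0.00871) and over the 3 sets -1.18 (SE 0.27, edgeR adjusted p = 0.00458). Hspa1b had 68.1, 67.7 and 155.0 CPM in WT and 47.9, 52.1 and 16.8 in KO libraries, 88.5 and 139.1 in Ctrl against 13 and 53.9, and 54.8 and 20.6 in CreCtrl against 29.4 and 27.4. WT replicate 3 carried the highest and KO replicate 3 the lowest level of the WT set for both genes. Hspa1b changed by -1.48 on the log2 scale against WT (SE 0.46, edgeR adjusted p = 0.0354), a call that was lost without WT replicate 3 (-0.94, edgeR adjusted p = 0.14) and without any 1 of the 3 KO replicates (0.0605, 0.0606 and 0.0781). Over the 3 sets it fell by 1.19 (SE 0.38, edgeR adjusted p = 0.0232), which was lost without WT replicate 3 (0.061) or CreCtrl replicate 1 (0.0508).

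Reads could not be assigned firmly to either copy. Of the 50-base windows of their exons, 66.3% in Hspa1a and 62.3% in Hspa1b also occurred in another gene, the other copy among them. With both counts summed, a step added after the data had been seen, the log2 fold change was -1.57 against WT (edgeR adjusted p = 0.0167) and -1.20 over the 3 sets (edgeR adjusted p = 0.0097).

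Hsph1 encodes HSP110, the nucleotide exchange factor of HSP70. It had 144.8, 112.9 and 156.1 CPM in WT and 46.8, 58.0 and 49.3 in KO libraries, and fell by 1.58 on the log2 scale (SE 0.16, edgeR adjusted p = 1.54e-04). The other controls were already near the KO level, at 45.5 and 56.7 CPM in Ctrl against 40.7 and 35.8 in KO libraries and 56.3 and 63.1 CPM in CreCtrl against 47.7 and 56.5. Over the 3 sets it fell by 0.79 (SE 0.18, edgeR adjusted p = 0.00447). Dnajb1, the HSP40 that partners inducible HSP70, had 140.9, 103.3 and 129.0 CPM in WT against 55.9, 82.9 and 82.3 in KO libraries. In the Ctrl set 1 control stood far above the rest, with 137.4 and 488.5 CPM in Ctrl and 51.8 and 54.5 in KO libraries, while CreCtrl had 60.6 and 46.2 CPM against 48.1 and 50.1. Dnajb1 fell against WT by 0.91 (SE 0.19, edgeR adjusted p = 0.00545). Over the 3 sets it fell by 1.07 (SE 0.34, edgeR adjusted p = 0.0243), a call lost without KO replicate 1 or 2 of the Ctrl set (0.0686 and 0.0625) and with the replicate block (0.0508).

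Hspb1, which encodes the small heat-shock protein HSP25, showed the largest fall of the 38 genes against WT. It was among the 3 that lay lower in all KO than in all control libraries of every set, as 9.62% of all genes did. It lies on chromosome 5 (135887919 to 135889563, plus strand) with 2 exon blocks. Its level was 188.0, 90.6 and 141.7 CPM in WT and 28.4, 25.8 and 19.2 in KO libraries. In the Ctrl set it was 20.1 and 28.4 CPM in Ctrl against 1.9 and 3.8 in KO libraries, and in the CreCtrl set 41.2 and 41.8 CPM in CreCtrl against 12.5 and 14.8. The Ctrl level thus resembled the KO level of the WT set, so a shared direction went with unlike baselines. Hspb1 fell by 2.67 on the log2 scale against WT (SE 0.27, edgeR adjusted p = 1.67e-04), by 1.65 against CreCtrl (SE 0.18, edgeR adjusted p = 0.00442) and by 2.41 over the 3 sets (SE 0.24, edgeR adjusted p = 1.72e-05). Its change of -3.07 in the Ctrl set had an edgeR adjusted p of 0.109 (5.41e-07 with DESeq2). Of its 50-base windows, 50.1% also occurred in Hsp25-ps1 and Gm9817, so its reads could be split among these genes.

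Hspb8 and its partner Bag3 form a complex that hands misfolded protein to autophagy. Hspb8 was lower in every KO library of every set, at 76.2, 68.8 and 82.4 CPM in WT against 34.1, 32.3 and 20.5, at 37.5 and 48.9 in Ctrl against 15.6 and 25.3, and at 38.8 and 34.4 in CreCtrl against 25.9 and 21.7. It fell by 1.54 against WT (SE 0.20, edgeR adjusted p = 6.04e-04), by 0.68 against CreCtrl (SE 0.17, edgeR adjusted p = 0.0391) and by 1.09 over the 3 sets (SE 0.17, edgeR adjusted p = 4.20e-04). The CreCtrl call did not survive leaving out any 1 of its 4 libraries (edgeR adjusted p between 0.0547 and 0.255). Bag3 had 60.7, 78.2 and 78.6 CPM in WT against 29.8, 31.1 and 27.6 in KO libraries, 50.0 and 97.9 in Ctrl against 27.5 and 45.6, and 33.5 and 35.3 in CreCtrl against 30.7 and 34.2. It fell against WT by 1.45 (SE 0.16, edgeR adjusted p = 2.28e-04) and over the 3 sets by 0.88 (SE 0.20, edgeR adjusted p = 0.00461), with overlapping groups in the CreCtrl set. Hsf1 itself, the transcription factor of the heat-shock response, had 62.9, 70.9 and 63.6 CPM in WT against 47.8, 57.7 and 63.7, 49.7 and 53.2 in Ctrl against 42.5 and 43.7, and 52.4 and 60.3 in CreCtrl against 56.9 and 46.6. Its log2 fold change of -0.37 against WT (SE 0.15, edgeR adjusted p = 0.0818) and of -0.21 over the 3 sets (SE 0.09, edgeR adjusted p = 0.0961) did not pass the test. Hsf1 was called lower over the 3 sets by DESeq2 (0.0214), and under scaling by library size alone both against WT (-0.62, edgeR adjusted p = 0.0106) and over the 3 sets (-0.48, edgeR adjusted p = 0.00311). HSF1 is controlled mainly after translation, and its activity was not measured.

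**Figure D3:**
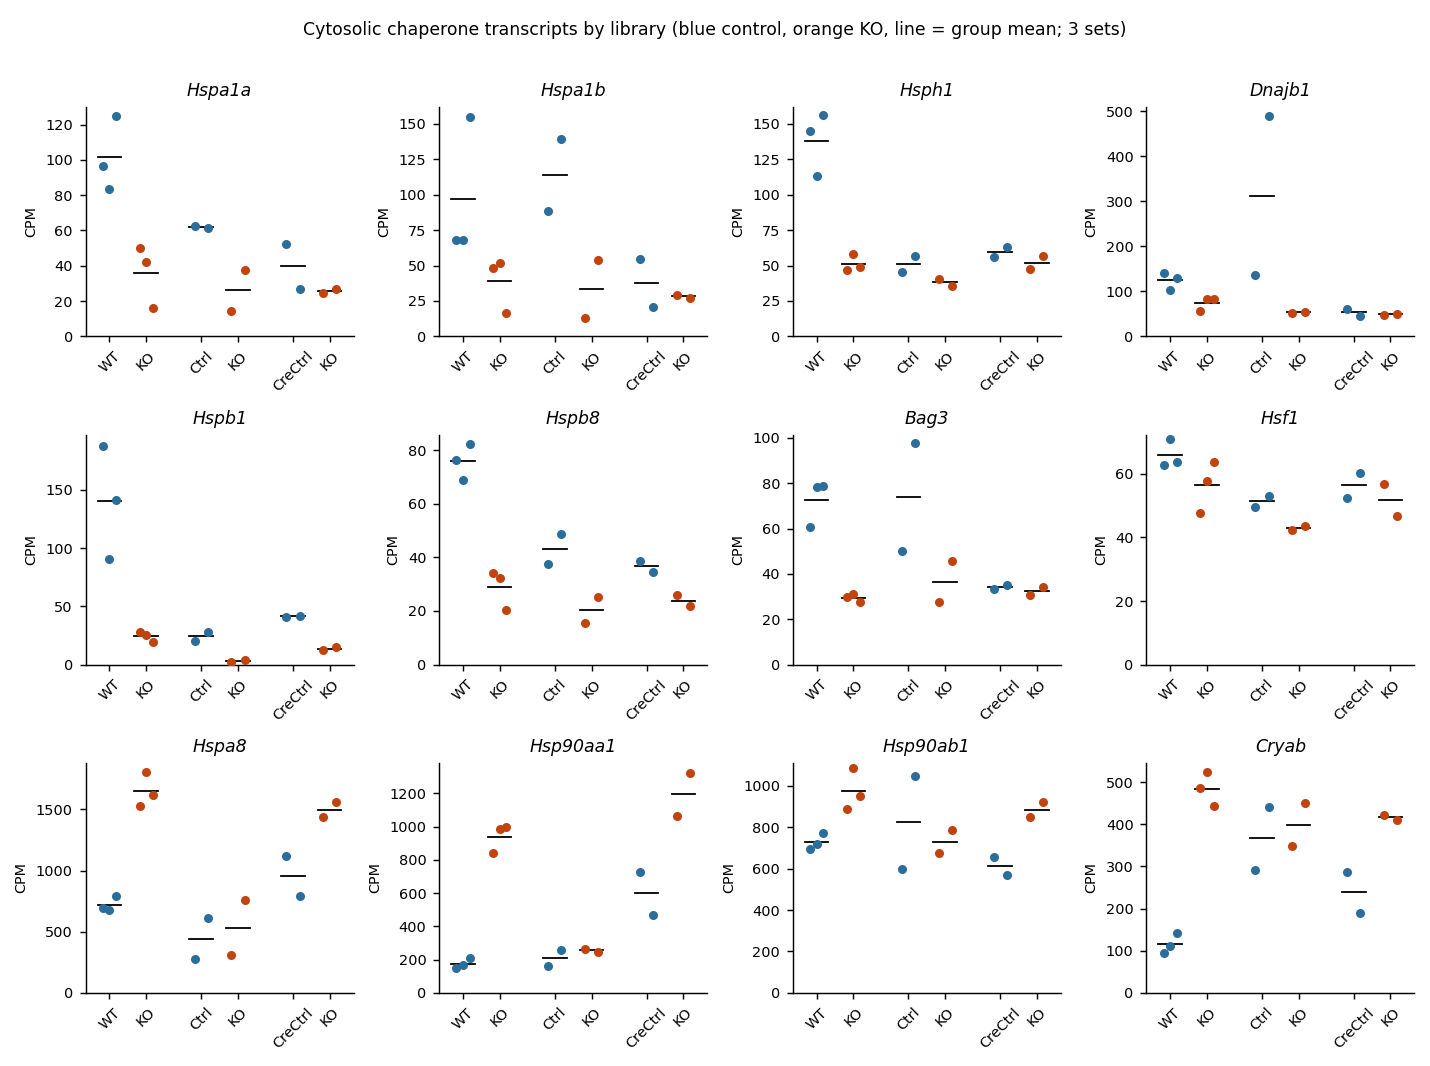
CPM (y axis, from 0) of 12 cytosolic heat-shock genes in each of the 14 libraries (points, blue control and orange KO; lines are group means; x axis, the 3 sets). Hspb1 and Hspb8 are lower in all KO libraries of each set, Hspa8, Hsp90aa1 and Cryab are higher in KO libraries of the WT and CreCtrl sets, and 1 Ctrl library reaches 488.5 CPM of Dnajb1.

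The genes that rose in the cytosolic group included Hspa8 and Dnaja1. Hspa8, the constitutive HSP70 (HSC70), had 696.7, 677.1 and 791.0 CPM in WT and 1528.6, 1803.0 and 1620.5 in KO libraries. The other sets had 275.5 and 610.9 CPM in Ctrl against 305.2 and 761.4, and 1115.5 and 791.2 CPM in CreCtrl against 1435.5 and 1560.1. KO libraries lay above their controls in the WT and CreCtrl sets, and the groups overlapped in the Ctrl set. Hspa8 rose by 1.04 on the log2 scale against WT (SE 0.13, edgeR adjusted p = 4.74e-04) and by 0.77 over the 3 sets (SE 0.24, edgeR adjusted p = 0.0198). Dnaja1, an HSP40 that works with HSC70, had 71.0, 75.7 and 85.9 CPM in WT against 124.7, 147.6 and 158.2, 80.6 and 75.2 in Ctrl against 96.4 and 79.7, and 137.0 and 104.1 in CreCtrl against 157.9 and 188.4. It rose by 0.73 against WT (SE 0.14, edgeR adjusted p = 0.00396) and by 0.57 over the 3 sets (SE 0.12, edgeR adjusted p = 0.00283). Other gene models shared 39.4% of the windows of Hspa8 and 20.6% of those of Dnaja1.

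Hsp90aa1, which encodes HSP90 alpha and lies on chromosome 12 (110690605 to 110702728, minus strand), rose more than any other of the 38 genes against WT. It had 148.2, 167.1 and 206.9 CPM in WT and 837.9, 983.0 and 994.9 in KO libraries, a log2 fold change of 2.28 (SE 0.17, edgeR adjusted p = 4.81e-05). In the Ctrl set the groups overlapped at 163.6 and 257.5 against 264.3 and 245.0 CPM. In the CreCtrl set it had 728.8 and 467.0 CPM in CreCtrl and 1062.9 and 1323.7 in KO libraries, a log2 fold change of 0.95 (SE 0.26, edgeR adjusted p = 0.048). Thus the CreCtrl baseline lay well above the WT and Ctrl baselines, and the KO libraries of the Ctrl set stayed below every other KO library. Over the 3 sets it rose by 1.40 (SE 0.30, edgeR adjusted p = 0.00286). Other gene models shared 47.5% of its windows. Its paralog Hsp90ab1 (HSP90 beta), the most abundant of the 38 genes per length in controls, was not called by edgeR in any comparison, with levels between 568.2 and 1085.3 CPM, and was called higher against CreCtrl by DESeq2 (0.48 on edgeR's log2 scale, DESeq2 adjusted p = 0.0148).

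Cryab encodes the small heat-shock protein alpha B-crystallin, which RPE cells express constitutively. It had 94.4, 111.7 and 141.2 CPM in WT and 486.4, 524.0 and 442.3 in KO libraries, 291.5 and 441.4 in Ctrl against 348.9 and 449.7, and 286.9 and 189.4 in CreCtrl against 421.0 and 411.1. WT libraries stood lowest of all, and KO libraries of the 3 sets ranged from 348.9 to 524.0 CPM. The log2 fold change was 1.91 against WT (SE 0.17, edgeR adjusted p = 1.01e-04), 0.75 against CreCtrl (SE 0.22, edgeR adjusted p = 0.0554, short of the threshold, and 0.00303 with DESeq2) and 1.14 over the 3 sets (SE 0.27, edgeR adjusted p = 0.00484). Its exons overlap Hspb2 on the other strand, and 13.3% of its windows are shared with that gene, so reads of the 2 cannot be told apart if strand was not used in counting. The 3 small heat-shock genes thus divided against WT and over the 3 sets, with Hspb1 and Hspb8 lower and Cryab higher.

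Summed over the 13 cytosolic genes, the level went opposite to the count of calls, because Hspa8, Hsp90aa1 and Hsp90ab1 make up most of it. The sum was 2426 to 2929 CPM in WT and 4206 to 4925 in KO libraries, 1903 and 3409 in Ctrl against 1897 and 2623, and 3316 and 2449 in CreCtrl against 4201 and 4683. The KO libraries thus held more of this transcript in 2 sets, although most called genes of the group fell.

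Hspd1 and Hspe1 encode HSP60 and HSP10, which form the mitochondrial folding chamber. Hspd1 had 43.6, 50.3 and 39.6 CPM in WT against 80.2, 84.3 and 78.4, 35.7 and 53.8 in Ctrl against 39.5 and 47.1, and 70.9 and 48.7 in CreCtrl against 90.4 and 114.8. It rose by 0.71 against WT (SE 0.13, edgeR adjusted p = 0.00319) and by 0.58 over the 3 sets (SE 0.16, edgeR adjusted p = 0.0108). Hspe1 had 30.4, 21.6 and 28.0 CPM in WT against 58.2, 55.4 and 40.1, 17.0 and 11.7 in Ctrl against 14.1 and 12.5, and 43.4 and 39.0 in CreCtrl against 50.0 and 47.5. It rose by 0.79 against WT (SE 0.20, edgeR adjusted p = 0.017), which was lost without KO replicate 1 of the WT set (0.0583), and its value over the 3 sets was 0.44 (edgeR adjusted p = 0.0633). Both genes lay higher in all KO than in all control libraries of the WT and CreCtrl sets and overlapped in the Ctrl set, although the sign of Hspe1 in the CreCtrl set turned when libraries were scaled by size alone. Other gene models shared 42.1% of the windows of Hspd1 and 22.8% of those of Hspe1.

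Among the ER chaperones, the HSP70 of this compartment did not follow the others. Hspa5 encodes BiP, the HSP70 of the ER that holds the stress sensors inactive, and lies on chromosome 2 (34771970 to 34777547, plus strand). It had 905.2, 504.6 and 759.4 CPM in WT against 544.5, 626.5 and 579.9, 459.9 and 811.9 in Ctrl against 487.0 and 435.7, and 506.4 and 403.7 in CreCtrl against 568.2 and 749.8. The log2 fold change was -0.46 against WT (SE 0.20, edgeR adjusted p = 0.115), -0.45 against Ctrl (SE 0.33, edgeR adjusted p = 0.769), 0.48 against CreCtrl (SE 0.22, edgeR adjusted p = 0.146) and -0.12 over the 3 sets (SE 0.19, edgeR adjusted p = 0.669). WT libraries spread widely for this gene, and only in the CreCtrl set did the groups not overlap. Hspa5 was called lower against WT by DESeq2 (0.0483) and under scaling by library size alone (-0.71, edgeR adjusted p = 0.0243). Hsp90b1, which encodes the ER HSP90 GRP94, had 285.6, 278.8 and 269.5 CPM in WT against 364.7, 386.0 and 371.3, 334.7 and 619.9 in Ctrl against 353.4 and 424.6, and 301.3 and 246.2 in CreCtrl against 407.3 and 473.0. Its log2 fold changes of 0.28 against WT (SE 0.11, edgeR adjusted p = 0.0763) and 0.63 against CreCtrl (SE 0.19, edgeR adjusted p = 0.0586) fell short of the threshold, while DESeq2 called both (0.0331 and 0.00339) and the groups did not overlap in either set.

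The lectin chaperones calreticulin and calnexin hold glycoproteins in the folding cycle. Calr had 497.0, 469.2 and 429.4 CPM in WT against 760.4, 856.6 and 732.7, 450.5 and 885.1 in Ctrl against 457.7 and 725.9, and 546.3 and 412.0 in CreCtrl against 796.2 and 827.1. It rose by 0.60 against WT (SE 0.12, edgeR adjusted p = 0.00467), with 0.71 against CreCtrl (0.0522, or 9.72e-04 with DESeq2) and 0.49 over the 3 sets (0.0605) short of the threshold. Canx had 151.1, 173.1 and 163.2 CPM in WT against 276.4, 259.9 and 287.7, 327.5 and 482.0 in Ctrl against 399.1 and 408.7, and 295.5 and 225.7 in CreCtrl against 407.0 and 513.9. Canx rose by 0.61 against WT (SE 0.12, edgeR adjusted p = 0.00457), by 0.77 against CreCtrl (SE 0.21, edgeR adjusted p = 0.0496) and by 0.55 over the 3 sets (SE 0.14, edgeR adjusted p = 0.00835). In the Ctrl set the KO values of Canx lay between the 2 Ctrl values.

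Disulfide bonds in the ER are made and shuffled by protein disulfide isomerases. Pdia4 had 60.8, 80.3 and 61.9 CPM in WT against 126.9, 171.8 and 123.8, 126.2 and 174.5 in Ctrl against 143.1 and 135.6, and 121.8 and 104.1 in CreCtrl against 170.4 and 179.1. KO libraries of the 3 sets ranged from 123.8 to 179.1 CPM, while WT libraries lay below all other controls. Pdia4 rose by 0.90 against WT (SE 0.17, edgeR adjusted p = 0.00333), by 0.58 against CreCtrl (SE 0.15, edgeR adjusted p = 0.0474) and by 0.60 over the 3 sets (SE 0.17, edgeR adjusted p = 0.013). Pdia3 had 299.7, 350.2 and 292.9 CPM in WT against 485.8, 561.8 and 452.0, 411.9 and 588.6 in Ctrl against 448.7 and 513.7, and 419.9 and 312.6 in CreCtrl against 514.9 and 548.7. It rose by 0.52 against WT (SE 0.13, edgeR adjusted p = 0.015) and by 0.42 over the 3 sets (SE 0.14, edgeR adjusted p = 0.0308), the latter lost under 13 of 21 alternatives. Among these were the omission of Ctrl replicate 1, CreCtrl replicate 2, WT replicate 1 or 3, KO replicate 1 or 2 in the same set, or either KO replicate of the CreCtrl set (edgeR adjusted p of 0.0568 to 0.0773). Pdia6 ranged from 109.8 to 189.3 CPM and Manf, a secreted ER stress factor, from 54.8 to 117.8 CPM. Neither was called by edgeR, and DESeq2 called both higher against CreCtrl (DESeq2 adjusted p = 0.0141 and 0.0316).

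The largest rises in the ER group belonged to cofactors. Sdf2l1, a BiP cofactor that keeps client proteins soluble (chromosome 16, 17130138 to 17132383, minus strand), had 7.65, 6.72 and 8.69 CPM in WT and 21.9, 26.5 and 24.6 in KO libraries. It had 15.1 and 18.6 in Ctrl against 18.4 and 12.7, and 15.1 and 12.8 in CreCtrl against 25.5 and 25.4. The KO libraries of the WT and CreCtrl sets shared nearly 1 level, above that of the Ctrl set. Sdf2l1 rose by 1.51 against WT (SE 0.24, edgeR adjusted p = 0.00172), by 0.81 against CreCtrl (SE 0.19, edgeR adjusted p = 0.0322) and by 0.92 over the 3 sets (SE 0.24, edgeR adjusted p = 0.00853). Dnajb9, the ER J-protein that recruits BiP to IRE1, had 37.3, 30.3 and 22.4 CPM in WT against 66.0, 87.5 and 76.1, 81.6 and 169.7 in Ctrl against 111.8 and 147.4, and 93.4 and 68.9 in CreCtrl against 146.8 and 167.0. It rose by 1.20 against WT (SE 0.20, edgeR adjusted p = 0.00188), by 0.90 against CreCtrl (SE 0.18, edgeR adjusted p = 0.0238) and by 0.86 over the 3 sets (SE 0.22, edgeR adjusted p = 0.00725).

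Dnajc3 encodes P58IPK, a J-protein and inhibitor of PERK. It had 111.6, 110.2 and 109.3 CPM in WT against 163.1, 165.0 and 167.8, 166.5 and 279.5 in Ctrl against 243.0 and 210.5, and 152.4 and 112.2 in CreCtrl against 216.4 and 297.0. The spread within the WT set was small beside the difference. Dnajc3 rose by 0.43 on the log2 scale against WT (SE 0.10, edgeR adjusted p = 0.0115), by 0.91 against CreCtrl (SE 0.23, edgeR adjusted p = 0.0399) and by 0.52 over the 3 sets (SE 0.15, edgeR adjusted p = 0.0147). Scaled by library size alone it had 0.19 against WT (edgeR adjusted p = 0.194) and 0.26 over the 3 sets (0.13), short of the threshold in both. Hyou1, the ER HSP110 GRP170, had 84.4, 62.5 and 80.3 CPM in WT against 108.9, 134.5 and 123.7, 84.7 and 146.0 in Ctrl against 112.8 and 114.8, and 89.6 and 79.2 in CreCtrl against 131.5 and 163.1. It rose by 0.54 against WT (SE 0.15, edgeR adjusted p = 0.0216), by 0.75 against CreCtrl (SE 0.17, edgeR adjusted p = 0.0319) and by 0.52 over the 3 sets (SE 0.15, edgeR adjusted p = 0.015). The WT call of Hyou1 was lost when WT replicate 2 (0.0588) or its set's KO replicate 2 (0.0501) was left out, and under scaling by library size alone (0.29 on the log2 scale, with 0.147), as was that over the 3 sets (0.25, with 0.128). The 9 CreCtrl calls rested on few libraries. How calls among all genes moved on omission of a library was not counted. Without KO replicate 2 of that set 8 of them were lost and Hspb1 kept its call, without CreCtrl replicate 2 all but Hspb1 and Dnajb9 were lost, and the ER stress genes called numbered 0, 1 and, without CreCtrl replicate 1, 13, in place of 6. The cytosolic genes called there numbered 1 without KO replicate 2 and 6 without CreCtrl replicate 1, in place of 3.

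**Figure D4:**
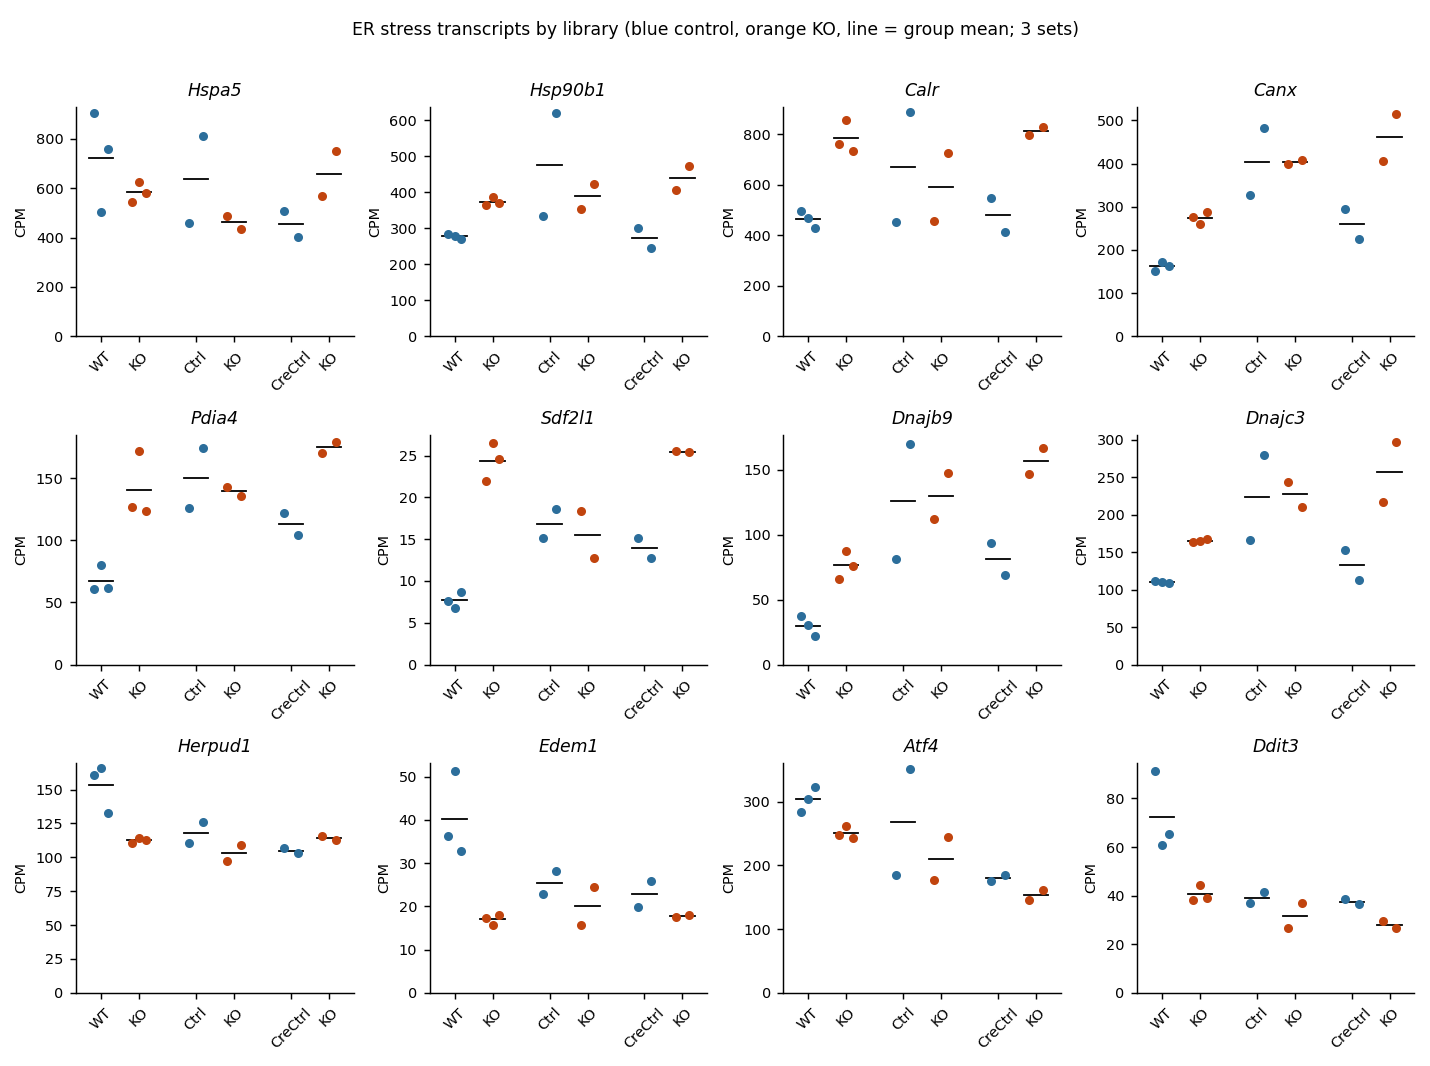
CPM (y axis, from 0) of 12 ER stress genes in each of the 14 libraries (points, blue control and orange KO; lines are group means; x axis, the 3 sets). Calr, Canx, Pdia4, Sdf2l1, Dnajb9 and Dnajc3 are higher in all KO than in all control libraries of the WT and CreCtrl sets, and Edem1, Atf4 and Ddit3 are lower there, while most groups overlap in the Ctrl set.

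ER-associated degradation was represented by Herpud1, which organises the retrotranslocation complex, and Edem1, which delivers misfolded glycoproteins to it. Herpud1 had 160.6, 166.2 and 132.6 CPM in WT against 110.5, 113.9 and 113.0, 110.3 and 126.1 in Ctrl against 97.5 and 109.2, and 106.8 and 103.2 in CreCtrl against 115.6 and 113.1. Its KO levels lay below all controls in the WT and Ctrl sets and above them in the CreCtrl set, where the sign of its fitted change turned under scaling by library size alone. It fell by 0.60 against WT (SE 0.12, edgeR adjusted p = 0.00483) and was called by edgeR in no other comparison. Its log2 fold change over the 3 sets of -0.22 (edgeR adjusted p = 0.106) passed with DESeq2 (0.0373) and when libraries were scaled by size alone (-0.49, 0.00495). Edem1 had 36.2, 51.4 and 32.8 CPM in WT against 17.4, 15.8 and 18, 22.9 and 28.1 in Ctrl against 15.6 and 24.6, and 19.9 and 25.8 in CreCtrl against 17.5 and 18. Edem1 fell by 1.38 against WT (SE 0.22, edgeR adjusted p = 0.00147) and by 0.74 over the 3 sets (SE 0.19, edgeR adjusted p = 0.00716).

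Calls among the 3 sensors were few and depended on the tool. Eif2ak3, which encodes PERK, had 38.9, 38.5 and 40.8 CPM in WT against 45.4, 67.1 and 56.8, 52.7 and 53.5 in Ctrl against 62.1 and 43.4, and 56.3 and 48.8 in CreCtrl against 74.4 and 77.7. It rose by 0.37 over the 3 sets (SE 0.12, edgeR adjusted p = 0.0297) by edgeR's test and passed it in no single set, whereas DESeq2 called it against CreCtrl (0.0379) and not over the 3 sets (0.0592). The edgeR call was lost under 17 of 21 alternatives, among them the omission of any WT library, either CreCtrl library, KO replicate 2 or 3 of the WT set, either KO library of the CreCtrl set or KO replicate 1 of the Ctrl set (edgeR adjusted p of 0.0529 to 0.0733). Ern1 (IRE1) ranged from 32 to 60.6 CPM and Atf6 from 40.1 to 90.7 CPM, and neither was called by edgeR or DESeq2. Xbp1, whose spliced form is the effector of IRE1, had 106.9, 102.1 and 114.9 CPM in WT against 88.4, 112.5 and 119.3, 97.2 and 122.6 in Ctrl against 102.0 and 76.9, and 118.9 and 103.9 in CreCtrl against 140.0 and 139.2. Its log2 fold change was -0.17 against WT (edgeR adjusted p = 0.408, or -0.41 with 0.0445 when scaled by library size alone), -0.28 against Ctrl (0.825) and 0.27 against CreCtrl (0.211), with SEs of 0.14, 0.25 and 0.15. Splicing of Xbp1 and cleavage of ATF6 are not seen in gene counts.

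Of the factors below PERK, Atf4 had 283.9, 304.1 and 323.5 CPM in WT against 247.4, 262.1 and 243.8, 184.7 and 350.8 in Ctrl against 176.7 and 244.8, and 175.0 and 185.5 in CreCtrl against 145.5 and 162.2. It fell by 0.43 against WT (SE 0.12, edgeR adjusted p = 0.0199), a call lost without WT replicate 3 (0.054) or any 1 KO replicate of the WT set (0.0918, 0.0968 and 0.123), and had -0.29 over the 3 sets (edgeR adjusted p = 0.10), which passed with DESeq2 (0.0276) and when scaled by library size alone (-0.55, 0.00353). Since ATF4 is induced by translation, its transcript says little of its protein. Ddit3, which encodes CHOP, a factor of the death response to prolonged ER stress, had 91.4, 60.7 and 65.4 CPM in WT against 38.4, 44.3 and 38.9, 36.8 and 41.6 in Ctrl against 26.6 and 37.0, and 38.7 and 36.4 in CreCtrl against 29.5 and 26.7. The groups did not overlap in the WT and CreCtrl sets. Ddit3 fell by 0.99 against WT (SE 0.17, edgeR adjusted p = 0.00253) and by 0.57 over the 3 sets (SE 0.13, edgeR adjusted p = 0.00459). Against CreCtrl it had -0.47 (edgeR adjusted p = 0.069), and scaling by library size alone called it lower there (-0.69, edgeR adjusted p = 0.0279). It overlaps Mars on the other strand.

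The 3 targets of ATF4 were the scarcest of the 38 genes. Asns, asparagine synthetase, had 3.58, 3.23 and 2.49 CPM in WT and 1.14, 0.0 and 1.67 in KO libraries, 2.18 and 2.98 in Ctrl against 0.523 and 0.89, and 1.43 and 1.19 in CreCtrl against 0.333 and 0.285. The count of 0 in KO replicate 2 of the WT set allows up to 3 counts, or 0.209 CPM, by counting error only. Every KO library lay below every control of its set, and over the 3 sets Asns fell by 1.86 (SE 0.60, edgeR adjusted p = 0.027). No single set passed in the main fit, while scaling by library size alone called Asns lower against CreCtrl (-2.34, edgeR adjusted p = 0.0443). The call over the 3 sets was lost without KO replicate 1 of the Ctrl set (0.0565), CreCtrl replicate 1 (0.0529) or KO replicate 1 or 2 of the CreCtrl set (0.0545 and 0.061). Trib3, a pseudokinase that restrains ATF4 and CHOP, had 6.27, 1.53 and 8.49 CPM in WT against 5.25, 3.56 and 2.73, 4.17 and 1.81 in Ctrl against 4.38 and 2.49, and 5.86 and 5.52 in CreCtrl against 3.5 and 3.06. Trib3 was not called by edgeR, with -0.66 against WT (SE 0.69, edgeR adjusted p = 0.518) and -0.39 over the 3 sets (SE 0.38, edgeR adjusted p = 0.456). Chac1, which degrades glutathione, reached at most 1.70 CPM and had 0 counts in 4 libraries, so a change was not detectable at this depth. Together with Hspb1 and Hspb8, Asns made up the 3 of 38 genes whose KO libraries lay below their controls in all 3 sets, where 9.62% of all genes did so, and none of the 38 lay above in all 3 sets, where 7.46% of all genes did.

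The size of the KO effect was compared between sets with all 14 libraries in 1 fit of 6 groups. On omission of a library, calls were counted among the 38 genes only. Between the WT and the Ctrl set, 5 of 38 genes differed (edgeR adjusted p under 0.05), where 5.15% of 17662 genes did. The effect was greater in the WT set for Hsp90aa1 by 2.13 on the log2 scale (SE 0.33, edgeR adjusted p = 0.00951), Cryab by 1.91 (SE 0.33, edgeR adjusted p = 0.0117), Sdf2l1 by 1.76 (SE 0.33, edgeR adjusted p = 0.0151) and Pdia4 by 1.14 (SE 0.27, edgeR adjusted p = 0.0302), and Hsph1 had a difference of -1.03 (SE 0.25, edgeR adjusted p = 0.0348). For Cryab, Sdf2l1 and Pdia4 all WT libraries lay below both Ctrl libraries. For Hsp90aa1 the control levels overlapped, while KO libraries had 837.9 to 994.9 CPM in the WT set and 245.0 and 264.3 CPM in the Ctrl set. The count was 13 without Ctrl replicate 1, 1 without Ctrl replicate 2, 2 without KO replicate 2 of the Ctrl set, and 3 on omission of KO replicate 2 from the WT set, KO replicate 1 from the Ctrl set, or WT replicate 1 or 3.

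Between the WT and the CreCtrl set, Hsp90aa1 (1.44, SE 0.33, edgeR adjusted p = 0.05, below the threshold before rounding) and Hsph1 (-1.22, SE 0.25, edgeR adjusted p = 0.0358) differed, where 1.49% of all genes did. The omission of any 1 of the 10 libraries of these sets left 0 or 1 of them. Between the Ctrl and the CreCtrl set edgeR called 0 of 38 genes and 0% of all genes. At an unadjusted p under 0.05, 14 of the 38 passed edgeR's test, where 1545 of all 17662 genes did. No other tool was run on these differences. Without Ctrl replicate 1, 2 of the 38 passed.

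Levels per length, as counts per kilobase of exon scaled to the same total in each library, gave the order of the 38 genes. Group means were averaged over the 3 sets with equal weight for each group, whatever its number of libraries. For the control groups Hsp90ab1 (882.2), Calr (677.3), Hspa8 (603.1), Cryab (577.8) and Hspa5 (529.1) led. Trib3 (8.27), Asns (3.18) and Chac1 (1.55) came last. For the KO groups Cryab (839.8), Hsp90ab1 (824.6) and Hspa8 (806.8) led within a narrow range. Hsp90aa1 moved from place 9 to 5, Hspb1 from 10 to 26 and Dnajb1 from 13 to 22.

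Genes of the same pathways outside the 38 were taken from 6 further lists with 94 genes, of which 93 were tested. Over the 3 sets 49 rose and 8 fell by edgeR's test, where 18.5% of all genes were called higher and 17.6% lower, and log2 fold changes of that fit are given in parentheses. Scaling by library size alone, which over the 3 sets cut the higher calls among all genes from 3276 to 1499, was not run on these lists. Cytosolic co-chaperones gave 11 higher and 1 lower of 23, led by Hspa2, a testis-enriched HSP70 (-2.18), and by the HSP90 and HSC70 partners Fkbp4 (1.13) and St13 (1.07). The chaperonin TRiC, which folds actin and tubulin, gave 6 higher of 8 and none lower, among them Cct7 (0.63), Cct3 (0.53) and Cct6a (0.43), and mitochondrial factors 6 higher of 10, among them Grpel1 (0.79), Clpp (0.57) and Dnaja3 (0.46). Further ER chaperones divided, with 6 higher and 2 lower of 16, where the BiP exchange factor Sil1 rose (1.07) and Rcn1 (-0.83) and Txndc5 (-0.68) fell. Degradation factors outside the 38 rose for 7 of 12, among them Vcp (0.76) and Selenos (0.68), and fell for none, whereas Edem1 fell. The integrated stress response list gave 13 higher and 5 lower of 24, and its largest changes were the falls of Atf3 (-3.15), Nupr1 (-3.11) and Eif4ebp1 (-2.21). These falls do not stand for the list, whose median was 0.33 and whose highest value was 1.66. In KO vs. WT 34 of the 93 rose and 12 fell, against 16.1% and 19% of all genes. In KO vs. CreCtrl 6 rose and 3 fell, against 3.6% and 12.2% of all genes, and in KO vs. Ctrl edgeR called 0, with 8 at an unadjusted p under 0.05 and 5 called by DESeq2.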

How the data were processed

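RPE of both eyes of each of 14 mice gave 1 library. The authors deposited raw read counts per Ensembl gene, made from stranded libraries. Per the submitters' processing notes, bcl2fastq 2.19, STAR 2.5.2, HTSeq 0.11.2 and Cufflinks 2.1.1 were used with GRCm38, and the strand setting of the counting is not given in the sources used here. Groups came from the sample titles, in which each set writes its replicate numbers in a style of its own, and KO libraries were placed with the controls of the same style. Of 42687 genes 42329 were found in GENCODE M21, which gave positions and exon lengths.

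Counts were tested with edgeR 4.0.16 in R 4.3.3 (TMM scaling, low counts filtered by expression, quasi-likelihood F test, adjusted p under 0.05 over all genes tested) for each set with its own libraries, for 1 KO effect with set as a covariate, and for differences between sets in a fit of all 14 libraries. The SE of a log2 fold change was taken as its size over the square root of F. DESeq2 1.42.0 served as an alternative, and sequences, tables and plots were made in Python 3.11.15 with matplotlib 3.10.9. The scripts were tested on simulated counts. Replicates were separate mice, and no libraries were duplicates within counting noise. Intervals from counts of 0 cover counting error only.

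The members and lists were chosen with earlier results of these data known. Genes named in full were a fixed set of 19 and any other member called in a comparison. Other pathway genes were named by the largest called change, up to 3 a list, and 1 of them is not reported here. Alternatives were DESeq2, RLE or library-size scaling, filters of at least 1 count or of 10 counts in every library, a fold above 1.5, a replicate block, 1 fit of all libraries and the omission of each library. With 2 libraries a group, an arm left with 1 library takes its spread from the other groups.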

Additional observations from a re-analysis of the deposited data

Results flagged for a closer look

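The KO effect differed in size between sets for 5 of the 38 genes. Between the WT and the Ctrl set the difference of log2 fold changes was 2.13 for Hsp90aa1, 1.91 for Cryab, 1.76 for Sdf2l1 and 1.14 for Pdia4, all with the greater rise in the WT set, and -1.03 for Hsph1, with the greater fall there. Between the WT and the CreCtrl set it was 1.44 for Hsp90aa1 and -1.22 for Hsph1. Control genotype and set coincide in these comparisons and cannot be told apart. Both differences between the WT and the CreCtrl set were lost on omission of some single library.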

How the results depend on the processing

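No called gene changed sign under the alternatives run. Against WT 18 of 25 genes kept their call under all of them, over the 3 sets 10 of 23, and against CreCtrl 1 of 9 (Hspb1). Requiring at least 1 count only, the numbers of genes called became 3 for the difference between the Ctrl and CreCtrl sets (from 0), 4 for WT against CreCtrl (from 2), 10 for WT against Ctrl (from 5), 5 cytosolic and 12 ER stress genes against CreCtrl (from 3 and 6), and 6 cytosolic genes against Ctrl (from 0). DESeq2 called 6 cytosolic and 12 ER stress genes against CreCtrl and 2 cytosolic genes against Ctrl. One fit of all 14 libraries called 1 and 2 against CreCtrl and 2 cytosolic genes against Ctrl. RLE scaling left 1 difference between the WT and CreCtrl sets. Over the 3 sets the 11 ER stress genes became 7 under scaling by library size alone and 5 with a fold above 1.5 required. The cause of these shifts was not tested.

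On omission of 1 library at a time, cytosolic genes called ranged from 1 to 6 and ER stress genes from 0 to 13 against CreCtrl, and from 0 to 2 and at 0 against Ctrl. Differences between sets ranged from 1 to 13 (WT and Ctrl), 0 to 1 (WT and CreCtrl) and 0 to 2 (Ctrl and CreCtrl). Against WT the ranges were 10 to 11 and 10 to 12, and over the 3 sets 10 to 12 and 8 to 15.

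The replicate numbers did not pair the samples, since deviations of same-numbered KO and control libraries correlated at -0.07 to 0.12. With the replicate block, 5 cytosolic genes were called against CreCtrl, and 3 and 0 genes differed between the WT and the Ctrl or CreCtrl set. The block ended the calls of Hspa1b against WT, Pdia4 against CreCtrl, and Dnajb1, Eif2ak3 and Pdia3 over the 3 sets.

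With 2 libraries a group, a missing call in the Ctrl or CreCtrl set does not show that a gene was unchanged. Depth limited Chac1, Asns and Trib3.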
